A study of Oryza sativa Indica Group with 18 samples.

Results

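The gibberellin receptor gene GID1 and the DELLA repressor gene SLR1 were measured in whole rice seedlings under drought, and they moved in opposite directions. GID1 was about 4 times higher in drought-stressed seedlings than in control seedlings at both times in both cultivars, with log2 changes of 1.86 to 2.21. SLR1 was lower after 6 h of drought in both cultivars, by 1.48 on the log2 scale in IR20 and 1.62 in Dagad deshi, and at 3 h its change was -0.18 in IR20 (not called) and -1.08 in Dagad deshi (called). The Dagad deshi 3 h call and the tested difference between the cultivars in that response (0.89) were both lost in a fit that included an index of RNA quality, with -0.50 (adjusted p = 0.178) and 0.59 (adjusted p = 0.0721), and the difference was also lost with array weights (adjusted p = 0.0624). The fit with the index cannot separate RNA quality from drought, since the index of control and drought arrays did not overlap.

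Gibberellins are diterpenoid hormones that drive stem and leaf growth in rice. The soluble receptor GID1 binds active gibberellin and then the DELLA protein SLR1, a repressor of growth, which is marked for breakdown by a ubiquitin ligase that contains GID2. Gibberellin 2-oxidases, encoded by the GA2OX genes, inactivate the hormone, and the pathway is feedback-regulated, since active gibberellin is known to lower the expression of some of its own 20-oxidase genes.

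The samples were 7-day-old seedlings of the indica rice cultivars IR20 and Dagad deshi, grown in liquid medium. Seedlings were dried on sheets of filter paper at 28 °C for 3 h or 6 h, and those of the control group spent 6 h in medium at the same temperature, so the 3 h samples had no control of their own duration. Total RNA of whole seedlings was hybridised to 18 one-colour rice arrays, with 3 arrays in each of the 6 groups (IR20 control, 3 h and 6 h drought, and Dagad deshi control, 3 h and 6 h drought). The labels call the 3 arrays of a group biological replicates without saying what was grown separately, so the p-values measure only the spread between these arrays.

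Members were the probe sets tied to exactly 1 gene whose RefSeq symbol or synonym was one of 10 names (GA2OX1, GA2OX2, GA2OX3, GA2OX5, GA2OX6, GA2OX7, GA2OX8, GA2OX9, GID1 and SLR1). The rule found 2 of the 10 names, among 17905 genes with a probe set of their own on the array. The 8 GA2OX names were tied to no gene in the reference table used here, and those genes were not analysed here. GID1 had 2 probe sets and SLR1 had 1, and all 3 passed the filter on low values, which kept 40094 of 57381 probe sets. Levels below are the deposited linear intensities, and changes are differences of log2(intensity + 16), each given with its standard error (SE) from limma and a Benjamini-Hochberg adjusted p over all 40094 probe sets. A change was called at an adjusted p under 0.05.

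The control arrays stood apart from the drought arrays in RNA quality. A 3′/5′ index (the mean log2 ratio of the 3′ over the 5′ probe set of actin, GAPDH and cyclophilin) was 1.80 to 3.19 on the 12 drought arrays, against 4.12 to 8.88 on the 6 control arrays. The highest values were 6.88 on IR20 control replicate 2 and 8.88 on Dagad deshi control replicate 1. Index and condition cannot be told apart by design, and a fit that included the index was one of the alternatives. In that fit the index term is set by differences between arrays of the same group. It is then carried across the gap between control and drought arrays, so its values cannot separate index from drought. In RNA of whole seedlings, fewer cells of a type and less RNA per cell cannot be told apart. Shoot and root genes were both present: of the fixed markers, 3 of 11 shoot names (RBCS, CAB2R and RCA) and 2 of 6 root names (LSI1 and LSI2) had a probe set. CAB2R lay between 29751 and 48258 on its main probe set over the 18 arrays, and LSI1, a silicon channel of roots, lay between 2192 and 8947.

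GID1, the receptor, was read by the brighter of its 2 probe sets (gene LOC4338764). In IR20 its intensity was 1542, 1783 and 1569 in the control arrays, 5884, 6241 and 5734 at 3 h of drought, and 7353, 6700 and 6430.0 at 6 h. In Dagad deshi it was 1536, 1367 and 1432 in the control arrays, 6700.0, 6501 and 7047 at 3 h, and 5838, 5958 and 5686 at 6 h. All 12 drought arrays (5686 to 7353) lay above all 6 control arrays (1367 to 1783), with no overlap in either cultivar.

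**Figure D1:**
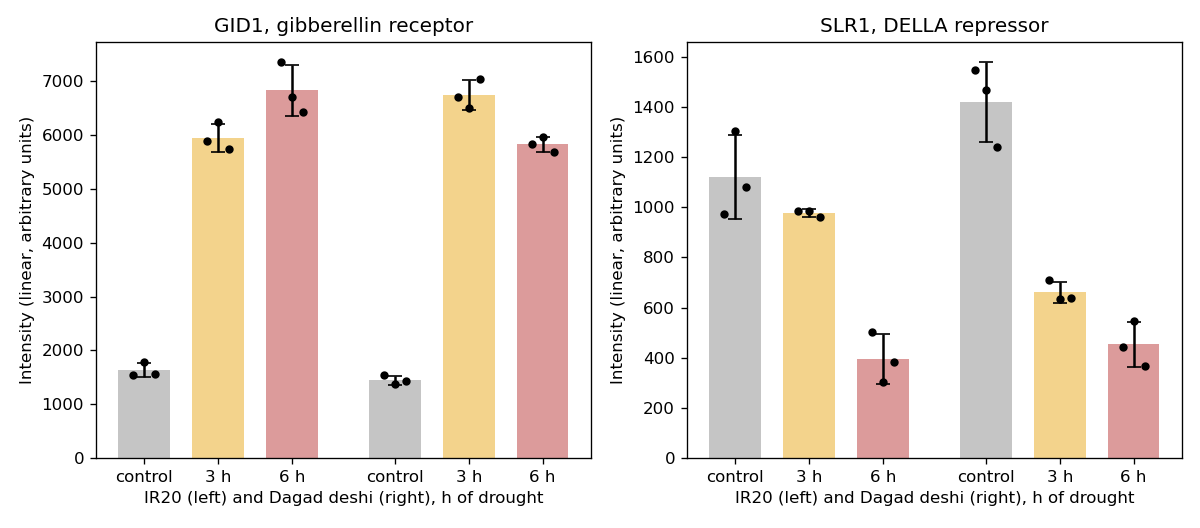
Intensity of GID1 (left panel) and SLR1 (right panel) on a linear axis from 0, for IR20 (left 3 bars) and Dagad deshi (right 3 bars) in control medium and after 3 h and 6 h of drought. Points are single arrays, bars are means and error bars are SD (n = 3); GID1 on every drought array (5686 to 7353) lay above every control array (1367 to 1783), while SLR1 at 3 h in IR20 (960 to 987) lay at the lower edge of its control arrays (974 to 1305).

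The rise of GID1 was 1.86 on the log2 scale (SE 0.07, 3.63-fold, 95% interval 3.29 to 4.01, adjusted p = 2.56e-11) in IR20 at 3 h, and 2.06 (SE 0.07, 4.16-fold, 3.76 to 4.59, adjusted p = 4.65e-12) at 6 h. In Dagad deshi it was 2.21 (SE 0.07, 4.63-fold, 4.19 to 5.12, adjusted p = 1.32e-12) at 3 h and 2.00 (SE 0.07, 3.62-fold to 4.42-fold by its 95% interval, adjusted p = 2.94e-12) at 6 h. The 2 changes within a cultivar share its 3 control arrays. A change at least as high was seen in 2.51% and 3.38% of the probe sets tested in IR20 (3 h and 6 h) and in 5.66% and 6.93% in Dagad deshi. All 4 calls held in each of the 29 alternative settings, and in the fit that included the 3′/5′ index GID1 changed by 1.99 and 2.22 in IR20 and 2.49 and 2.28 in Dagad deshi, the highest values of any setting.

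Between the drought times GID1 differed little. In IR20 the 6 h level was 0.20 above the 3 h level on the log2 scale (SE 0.07, adjusted p = 0.0443), while in Dagad deshi the 6 h level differed by -0.21 from the 3 h level (SE 0.07, adjusted p = 0.0584) and was not called. The IR20 call was lost in 4 other alternatives and on leaving out any of 11 single arrays, with adjusted p-values up to 0.193. These were all 6 Dagad deshi drought arrays, Dagad deshi control replicate 3, IR20 3 h replicates 1 and 3, and IR20 6 h replicates 1 and 2. The Dagad deshi difference was called in 8 of the 29 alternative settings, among them those without Dagad deshi control replicate 1, IR20 control replicate 2 or IR20 6 h replicate 1 (adjusted p = 0.0386, 0.0301 and 0.0443).

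The dimmer GID1 probe set read 6.22 to 7.90 on all arrays, close to the array medians of 7.13 to 8.20. It did not follow the brighter one. Its changes were 0.01 and 0.05 in IR20 at 3 h and 6 h, and -0.01 and -0.01 in Dagad deshi, of which only the IR20 6 h value passed the test (adjusted p = 0.0227). IR20 6 h replicate 3 alone read 7.90, and the other 17 arrays were at 6.63 or below. The call was lost without IR20 control replicate 1 or replicate 3 (adjusted p = 0.0592 and 0.0544) and in 4 other alternatives, among them the fit that included the index (0.04, adjusted p = 0.103).

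SLR1 (LOC4333860) encodes the only DELLA protein of rice that carries the DELLA motif, and its transcript went the other way. In IR20 its intensity was 974, 1305 and 1082 in the control arrays, 984, 987 and 960 at 3 h of drought, and 502, 302 and 384 at 6 h. In Dagad deshi it was 1549, 1467 and 1241 in the control arrays, 710.0, 635 and 638 at 3 h, and 444, 548 and 369 at 6 h. In IR20 the 3 h arrays overlapped the control arrays and the 6 h arrays lay below both, whereas in Dagad deshi the 3 groups did not overlap, with control highest and 6 h lowest.

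SLR1 in IR20 changed by -0.18 at 3 h (SE 0.17, 95% interval -0.54 to 0.17, adjusted p = 0.512), which was not called. At 6 h it fell by 1.48 (SE 0.17, 2.79-fold lower, 95% interval 2.18 to 3.58, adjusted p = 2.81e-06). In Dagad deshi it fell by 1.08 at 3 h (SE 0.17, 2.11-fold lower, 1.65 to 2.71, adjusted p = 5.45e-05) and by 1.62 at 6 h (SE 0.17, 3.08-fold lower, 2.40 to 3.95, adjusted p = 7.46e-07). The 3 h call in Dagad deshi was lost in the fit that included the 3′/5′ index, where the change was -0.50 (adjusted p = 0.178), and the 6 h change there was -1.05 (adjusted p = 0.00567). Both 6 h calls held in all 29 alternative settings. Between drought times, SLR1 in IR20 was lower at 6 h than at 3 h by 1.30 (SE 0.17, adjusted p = 3.71e-05), a call kept in all 29 settings. In Dagad deshi the 6 h level differed from the 3 h level by -0.54 (SE 0.17, adjusted p = 0.0511), which was not called in the main analysis and was called in 9 of the 29 settings, among them those without Dagad deshi control replicate 1, Dagad deshi 6 h replicate 2, IR20 control replicate 2, or IR20 6 h replicate 1 or 2 (adjusted p = 0.0222 to 0.0483).

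The counts of members called were read against all probe sets, because a large share of the array changed. In IR20 1 of 2 genes (GID1, higher) was called at 3 h, where 36.8% of probe sets were called, and 2 of 2 at 6 h, where 45.9% were. In Dagad deshi 2 of 2 genes were called at 3 h, with 70.9% of probe sets called, and 2 of 2 at 6 h, with 70.4%. Between the drought times 2 of 2 were called in IR20 (25.5% of probe sets) and 0 of 2 in Dagad deshi (11.5%). With 2 genes, these counts say little beyond each gene's own values.

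**Figure D2:**
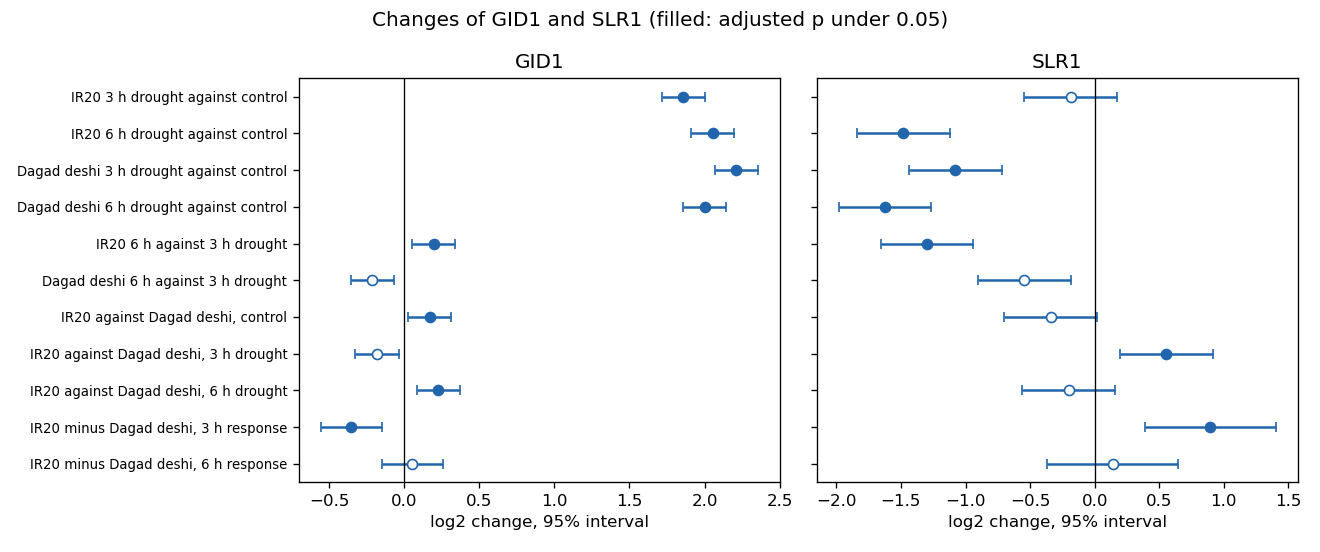
Change of GID1 (left) and SLR1 (right) in each of 11 comparisons, as a difference of log2(intensity + 16) with its 95% interval from limma (n = 3 arrays a group); filled points had an adjusted p under 0.05. The 4 drought against control changes of GID1 lie between 1.86 and 2.21, and the SLR1 change at 3 h lies at -0.18 in IR20 and at -1.08 in Dagad deshi.

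The cultivars were then compared. In control seedlings the log2 level of GID1 in IR20 exceeded that in Dagad deshi by 0.17 (SE 0.07, adjusted p = 0.0435), with means of 1631 ± 132 in IR20 and 1445 ± 85.3 in Dagad deshi (SD, n = 3 each). At 3 h the difference was -0.18 (SE 0.07, adjusted p = 0.0502), with means of 5953 ± 261 in IR20 and 6749 ± 276 in Dagad deshi. It was not called, but passed in 12 of the 29 settings, among them those without Dagad deshi control replicate 1 or 2, IR20 control replicate 2, IR20 3 h replicate 2, or IR20 6 h replicate 1 or 3 (adjusted p = 0.0265 to 0.0492). At 6 h GID1 was 0.23 higher in IR20 (SE 0.07, adjusted p = 0.0241), with means of 6828 ± 474 in IR20 and 5827 ± 136 in Dagad deshi. These differences were small beside the drought response and near the threshold. The control call of GID1 was lost in 6 other alternatives and on leaving out any of 10 single arrays (adjusted p up to 0.358 and 0.182). They were Dagad deshi control replicates 2 and 3, Dagad deshi 3 h replicate 1, all 3 Dagad deshi 6 h arrays, IR20 control replicate 2, IR20 3 h replicates 1 and 3, and IR20 6 h replicate 2, and the difference was 0.11 without IR20 control replicate 2. The 6 h call was lost without Dagad deshi 6 h replicate 1 or 3 or IR20 6 h replicate 1 (adjusted p = 0.0604, 0.0811 and 0.115).

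SLR1 differed between the cultivars by -0.34 in control seedlings (SE 0.17, adjusted p = 0.100), with means of 1120.3 ± 169 in IR20 and 1419 ± 159 in Dagad deshi. At 3 h it was 0.55 higher in IR20 (SE 0.17, adjusted p = 0.0179), with means of 977 ± 14.8 in IR20 and 661 ± 42.2 in Dagad deshi, and no IR20 array at 3 h overlapped a Dagad deshi array. At 6 h the difference was -0.20 (SE 0.17, 95% interval -0.56 to 0.16, adjusted p = 0.552), with means of 396 ± 100.5 in IR20 and 454 ± 89.8 in Dagad deshi. The 3 h call was lost without Dagad deshi 3 h replicate 2 or 3 (adjusted p = 0.0561 and 0.0557). In the control comparison SLR1 passed the test only without IR20 control replicate 2 (-0.46, adjusted p = 0.0476). Of the 2 genes, 1 was called between the cultivars in control seedlings (53.1% of probe sets called), 1 at 3 h (34.2%) and 1 at 6 h (22.1%).

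The test of the difference in response (IR20 change minus Dagad deshi change) showed that both genes responded unequally at 3 h. The 3 h response of GID1 was 0.35 smaller in IR20 on the log2 scale (difference -0.35, SE 0.09, adjusted p = 0.00887). That of SLR1 differed by 0.89 (SE 0.24, adjusted p = 0.00822), the fall being that much less deep in IR20. At 6 h the differences were 0.05 for GID1 (95% interval -0.15 to 0.26, adjusted p = 0.658) and 0.14 for SLR1 (-0.37 to 0.65, adjusted p = 0.649), and neither was called. Thus 2 of 2 genes were called at 3 h, where 48.2% of probe sets were, and 0 of 2 at 6 h, where 43% were. With array weights the 3 h differences had adjusted p-values of 0.0529 for GID1 and 0.0624 for SLR1, with quantile normalization that of GID1 was -0.24 (adjusted p = 0.0675), and with the index in the fit that of SLR1 was 0.59 (adjusted p = 0.0721).

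Ordered by level, GID1 was highest in IR20 at 6 h, followed by Dagad deshi at 3 h, IR20 at 3 h, Dagad deshi at 6 h, IR20 control and Dagad deshi control. No step between neighbours among the 4 drought groups was called (adjusted p = 0.933, 0.0502 and 0.868, in comparisons that called 24.9%, 34.2% and 36.4% of all probe sets). The middle step, Dagad deshi at 3 h over IR20 at 3 h, was 0.18 with a 95% interval of 0.04 to 0.32, and the arrays of these groups did not overlap, while the outer steps were 0.02 (-0.13 to 0.16) and 0.03 (-0.11 to 0.17). The lowest drought group, Dagad deshi at 6 h, stood 1.83 above IR20 control (adjusted p = 7.91e-12, with 49.8% of probe sets called). SLR1 was highest in Dagad deshi control, followed by IR20 control, IR20 at 3 h, Dagad deshi at 3 h, Dagad deshi at 6 h and IR20 at 6 h. The only called step between neighbours was that from IR20 at 3 h to Dagad deshi at 3 h, as given above.

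**Figure D3:**
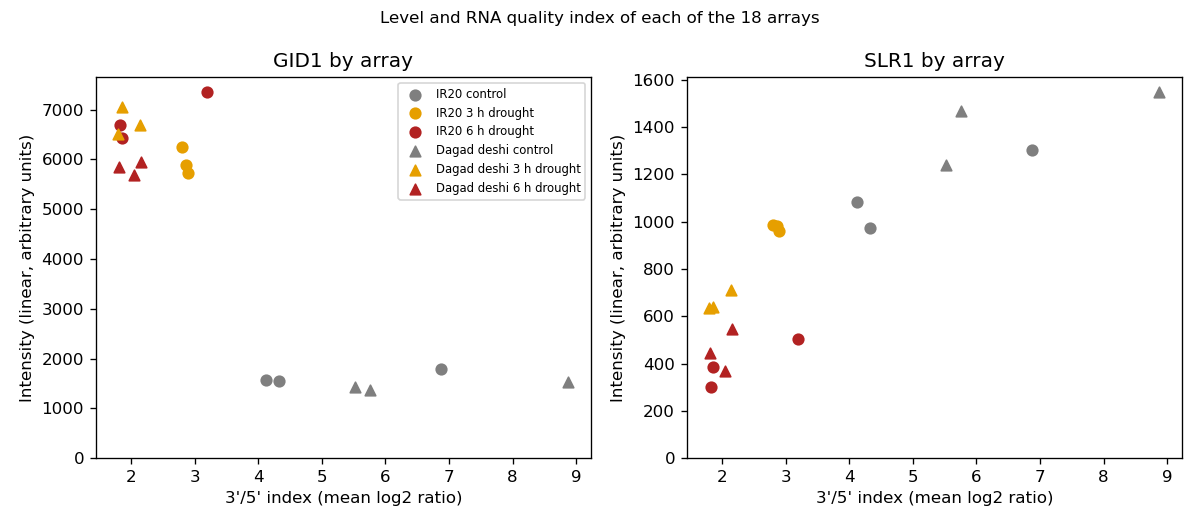
Intensity of GID1 (left) and SLR1 (right) against the 3′/5′ index of the same array (mean log2 ratio, no unit), 1 point for each of the 18 arrays; circles are IR20, triangles Dagad deshi, and colours mark control, 3 h and 6 h of drought. The 6 control arrays lie at an index of 4.12 to 8.88 and the 12 drought arrays at 1.80 to 3.19; SLR1 was highest (1549) on the array of the highest index (8.88).

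RNA quality moved with the drought contrast of both genes. Among the control arrays GID1 lay within 1367 to 1783 at indices of 4.12 to 8.88, against 5686 to 7353 on drought arrays. SLR1 was 1549 on the array with the highest index (Dagad deshi control replicate 1) and 1305 on IR20 control replicate 2, in each case the top value of its group. GID1 was likewise at the top of its group on these 2 arrays, with 1536 and 1783. Without these 2 control arrays the drought calls of both genes kept their direction and their side of the threshold. In the drought groups the array of highest index was not always at the top. IR20 6 h replicate 1 (index 3.19) had the top GID1 and SLR1 of its group (7353 and 502), and so had Dagad deshi 6 h replicate 2 (2.15, with 5958 and 548). Dagad deshi 3 h replicate 1 (2.14) had the top SLR1 (710.0) but not the top GID1. IR20 3 h replicate 3 (2.89) had the lowest of both (5734 and 960). At 3 h of drought the index was 2.79 to 2.89 in IR20 and 1.80 to 2.14 in Dagad deshi, and SLR1 was higher in IR20 there. With the index in the fit that difference was 0.44 (adjusted p = 0.0303), against 0.55 without it. The root markers were higher in IR20 than in Dagad deshi at 3 h, LSI1 by 0.80 and LSI2 by 3.08 on the log2 scale. The main shoot probe sets differed by -0.01 for RBCS and -0.06 for CAB2R, neither called, and 1.19 for RCA (adjusted p = 0.00335). In control seedlings the root markers were already higher in IR20, with means of 5884 against 2444 for LSI1 and 1929 against 687 for LSI2. SLR1 differed by -0.34 between the cultivars there, which was not called. At 6 h of drought the main probe sets of RBCS, CAB2R and RCA changed by -0.51, -0.17 and -0.30 in IR20 (only RBCS called) and fell by 1.49, 0.54 and 1.39 in Dagad deshi. The main RCA probe set ran from 8820 to 25521 on Dagad deshi control arrays. The dimmest RCA probe set had means of 3088 in IR20 control and 6234 at 6 h, and ran from 61.7 to 3935 in Dagad deshi control. The other RCA probe sets had lower means at 6 h than in control in both cultivars. The second CAB2R probe set had means of 26060 in IR20 control and 19908 at 6 h, and 23756 and 10580 in Dagad deshi. The root gene LSI1 rose by 0.48 in IR20 and 0.45 in Dagad deshi, and LSI2 rose by 1.28 in IR20 and had -0.52 in Dagad deshi, which was not called. The part of tissue make-up in the results was not tested.

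Other genes of the gibberellin pathway were taken from a fixed list, of which 11 genes had a probe set of their own and all 11 were tested. In IR20 2 rose, 4 fell and 5 were not called at 3 h (median change 0.13, against 0.00 over all probe sets), and 3 rose, 4 fell and 4 were not called at 6 h (median 0.06, against 0.01). In Dagad deshi 3 rose, 5 fell and 3 were not called at 3 h (median -0.21, against -0.03), and 5 rose, 6 fell and 0 were not called at 6 h (median -0.49, against -0.03). Over all probe sets, 14.9% were higher and 21.9% lower in IR20 at 3 h, 20.4% and 25.5% at 6 h, 23.6% and 47.3% in Dagad deshi at 3 h, and 24.7% and 45.7% at 6 h. The list did not move one way, and whether its groups differed was not tested.

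**Figure D4:**
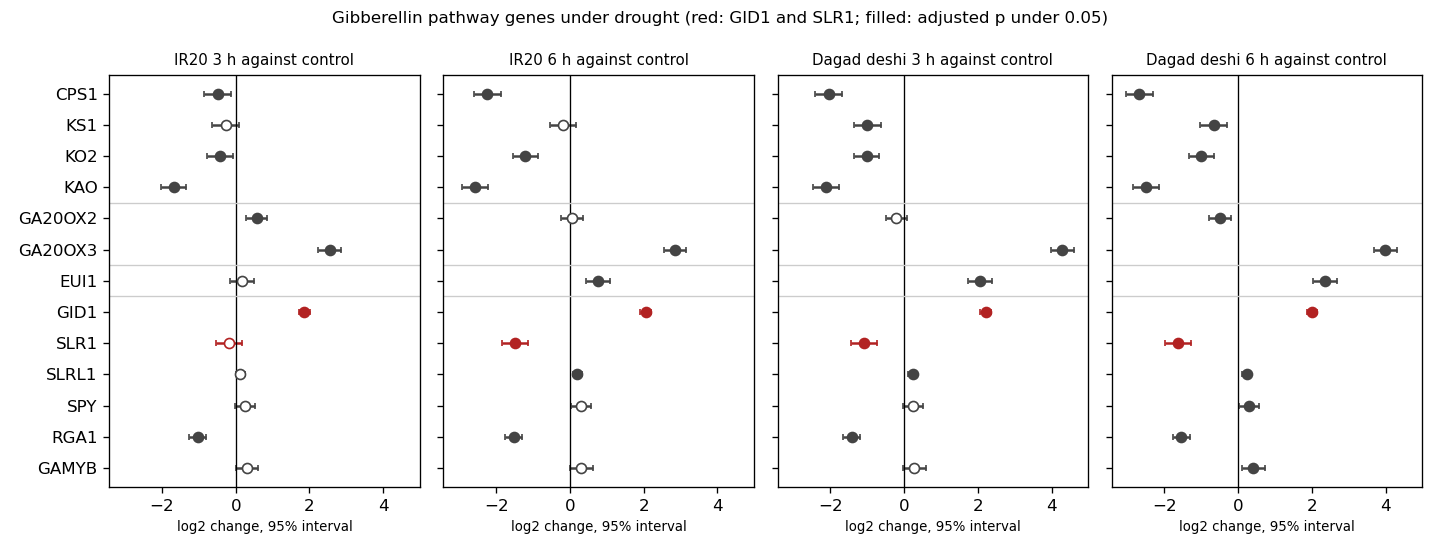
Change of 11 gibberellin pathway genes (dark) and of GID1 and SLR1 (red) in the 4 drought against control comparisons, as a difference of log2(intensity + 16) with its 95% interval (n = 3 arrays a group); filled points had an adjusted p under 0.05, and grey lines part early synthesis, late synthesis, inactivation and signalling. KAO lies at -1.69 to -2.58 and GA20OX3 at 2.55 to 4.30 in every panel, while EUI1 lies at 0.18 in IR20 at 3 h and at 2.07 in Dagad deshi at 3 h.

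The early synthesis genes CPS1, KS1, KO2 and KAO encode the enzymes that turn geranylgeranyl diphosphate into the first gibberellin. On the brightest probe set of each gene, 4 of 4 were called lower at both times in Dagad deshi and 3 of 4 in IR20, where KS1 was not called (-0.27 and -0.19, adjusted p = 0.262 and 0.388). Over all probe sets, 47.3% and 45.7% were called lower in Dagad deshi at 3 h and 6 h, and 21.9% and 25.5% in IR20. With 4 genes, these counts say little beyond each gene's own values. KAO was lower in every drought against control comparison (-1.69 to -2.58), whereas the second KO2 probe set disagreed with the first. The KS1 calls and the IR20 3 h calls of CPS1 and KO2 were lost in the fit that included the index. KAO, ent-kaurenoic acid oxidase, was at 125, 157 and 95.2 in IR20 control arrays, 31.1, 23.3 and 27.9 at 3 h and 8.52, 6.78 and 6.73 at 6 h, with changes of -1.69 and -2.58 (adjusted p = 1.02e-06 and 5.43e-09). In Dagad deshi KAO was at 140.2, 122 and 88.2 in control arrays, 12.3, 11.5 and 19.6 at 3 h and 7.04, 5.93 and 8.35 at 6 h, with changes of -2.12 and -2.51 (adjusted p = 3.11e-08 and 4.39e-09). By 6 h KAO was near the array medians in both cultivars.

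CPS1, the copalyl diphosphate synthase at the head of the pathway, was at 171, 212 and 143 in IR20 control arrays, 125, 130.0 and 105 at 3 h and 30.7, 23.0 and 19.5 at 6 h. In Dagad deshi CPS1 was at 210.3, 140 and 135 in control arrays, 21.6, 29.7 and 28.8 at 3 h and 11.5, 11.9 and 10.5 at 6 h. The 3 h level of CPS1 in IR20 was 1.67 above that in Dagad deshi on the log2 scale (adjusted p = 2.07e-06). CPS1 changed by -0.48 and -2.24 in IR20 at 3 h and 6 h (adjusted p = 0.0381 and 4.21e-08) and by -2.04 and -2.68 in Dagad deshi (adjusted p = 8.05e-08 and 3.47e-09). The IR20 3 h call of CPS1 was lost without IR20 control replicate 1 or 2 or IR20 3 h replicate 1 or 3 (adjusted p = 0.0722, 0.166, 0.0658 and 0.143), while the fit that included the index gave it a change of -0.11 (adjusted p = 0.551).

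KO2, an ent-kaurene oxidase, fell on its brighter probe set by 0.43 and 1.20 in IR20 at 3 h and 6 h and by 1.01 and 0.99 in Dagad deshi (adjusted p = 0.0485, 1.49e-05, 6.62e-05 and 7.44e-05). The dimmer probe set of the KO2 gene disagreed, with changes of -0.01 and -0.32 in IR20, neither called, and 0.51 and 0.48 in Dagad deshi (adjusted p = 0.0226 and 0.0305). Both have designs that can also bind related sequences, so the direction of KO2 is uncertain. The brighter probe set's IR20 3 h call was lost on leaving out any of 11 single arrays, namely all 3 Dagad deshi control arrays, IR20 control replicates 1 and 2, IR20 3 h replicates 1 and 2, Dagad deshi 3 h replicate 3, Dagad deshi 6 h replicates 1 and 2, and IR20 6 h replicate 3 (adjusted p up to 0.193). It was also lost in 7 other alternatives (adjusted p = 0.0526 to 0.151), among them quantile normalization, a pseudocount of 1, no filter and the fit that included the index (-0.40, adjusted p = 0.135). In that fit the dimmer probe set had -0.65 in IR20 at 6 h (adjusted p = 0.0219), and -0.05 and -0.07 in Dagad deshi at 3 h and 6 h, neither called. The dimmer probe set's Dagad deshi calls were both lost without Dagad deshi control replicate 3, and also without Dagad deshi 3 h replicate 2 at 3 h and without Dagad deshi 6 h replicate 1 or 3 at 6 h (adjusted p = 0.0624 to 0.0889). KS1, ent-kaurene synthase, fell by 0.99 and 0.67 in Dagad deshi (adjusted p = 0.000122 and 0.00312), values that became -0.67 and -0.35 with the index as a term (adjusted p = 0.113 and 0.434). The only KS1 probe set likewise has a design that can also bind related sequences.

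The late synthesis gene GA20OX3, a 20-oxidase, rose most of the list. It was at 255, 189 and 304 in IR20 control arrays, 1460.4, 1534 and 1531 at 3 h and 1881, 1815 and 1894 at 6 h. In Dagad deshi GA20OX3 was at 104, 155 and 104 in control arrays, 2660.5, 2665 and 2568 at 3 h and 2292, 2080 and 2028 at 6 h. No drought array overlapped a control array. The changes of GA20OX3 were 2.55 and 2.85 in IR20 (5.84-fold and 7.20-fold, adjusted p = 3.44e-09 and 4.61e-10) and 4.30 and 3.99 in Dagad deshi (19.6-fold and 15.9-fold, adjusted p = 3.62e-12 and 6.28e-12). GA20OX2, the 20-oxidase of the semidwarf locus, changed by 0.57 and 0.06 in IR20 (adjusted p = 0.00376 and 0.749) and by -0.21 and -0.49 in Dagad deshi (adjusted p = 0.190 and 0.00559). With the index in the fit the Dagad deshi 6 h value of GA20OX2 was -0.18 (adjusted p = 0.632).

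EUI1, a cytochrome P450 that inactivates gibberellins by another route than the 2-oxidases, was the one listed inactivation gene with a probe set of its own. It was at 21.8, 14.5 and 7.72 in IR20 control arrays, 18.8, 16.8 and 18.7 at 3 h and 44.8, 33.2 and 29.7 at 6 h. In Dagad deshi EUI1 was at 8.05, 11.2 and 5.72 in control arrays, 74.1, 95.6 and 89.0 at 3 h and 103, 114 and 104 at 6 h. The 3 h arrays thus overlapped the control arrays in IR20 and lay well above them in Dagad deshi. The changes of EUI1 were 0.18 and 0.78 in IR20 (adjusted p = 0.469 and 0.000554) and 2.07 and 2.35 in Dagad deshi (adjusted p = 1.62e-08 and 3.71e-09), on a scale where the pseudocount of 16 shrinks the change of so dim a gene.

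Of 4 other signalling genes, RGA1 changed most. RGA1, the alpha subunit of the heterotrimeric G protein, was at 2073, 2469 and 2080.5 in IR20 control arrays, 1074, 1034 and 1099.7 at 3 h and 670.4, 836 and 761 at 6 h. In Dagad deshi RGA1 was at 1851, 2329 and 2148 in control arrays, 716, 858 and 763 at 3 h and 752, 627 and 760 at 6 h. It fell by 1.03 and 1.53 in IR20 (adjusted p = 2.51e-06 and 2.01e-08) and by 1.42 and 1.54 in Dagad deshi (adjusted p = 3.03e-08 and 1.10e-08). SPY, a repressor of gibberellin responses, changed by 0.25 to 0.31 in the 4 comparisons, with 1 call (Dagad deshi 6 h, adjusted p = 0.0459) that was lost on leaving out 14 of the 18 single arrays (adjusted p up to 0.170), and kept without Dagad deshi control replicate 1, Dagad deshi 6 h replicate 2, or IR20 control replicate 1 or 3. GAMYB, a gibberellin-induced MYB factor in the cereal grain, changed by 0.28 to 0.41, also with 1 call (Dagad deshi 6 h, adjusted p = 0.0180) that was lost without Dagad deshi control replicate 3 or Dagad deshi 6 h replicate 1 (adjusted p = 0.0934 and 0.0536). In the fit that included the index both genes passed the test in all 4 comparisons with larger changes, of 0.45 and 0.55 for SPY and 0.56 and 0.64 for GAMYB in IR20 at 3 h and 6 h, and of 0.66 and 0.70 for SPY and 0.84 and 0.96 for GAMYB in Dagad deshi. SLRL1, an SLR1-like gene without the DELLA motif, was dim (5.98 to 15.9) and changed by 0.13 to 0.24, with 3 calls. Its 6 h calls were each lost in 1 alternative, with adjusted p = 0.0630 in Dagad deshi and 0.0536 in IR20. The only GAMYB probe set has a design that can also bind related sequences.

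Of 79 genes with a symbol whose probe sets were tested, those whose log2 levels over the 18 arrays were most like GID1 were PP2C68, a protein phosphatase 2C (Pearson r = 0.989), CWZF3 (r = 0.978) and GA20OX3 (r = 0.975). Those most like SLR1 were TAC1, named for tiller angle (r = 0.926), NINJA1 (r = 0.919) and NAL1, named for narrow leaves (r = 0.918). The arrays share groups, index and cultivar, so such values are a description only, and 26 of all tested probe sets were at least as like GID1 as PP2C68 was, and 204 as like SLR1 as TAC1 was.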

How the data were processed

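The authors deposited 1 linear intensity per probe set and array for all 18 arrays; GCOS is named in the submitters' processing notes, and the background correction, summarisation and scaling behind the deposited intensities are not given in the sources used here. Array medians were 7.13 to 8.20 and upper quartiles 195 to 223, so no further scaling was applied. Values were analysed as log2(intensity + 16), after leaving out 104 control probe sets and those at or below the 30th percentile of the mean. limma 3.58.1 in R 4.3.3 fitted 6 group means over all arrays (lmFit, contrasts.fit and eBayes with a mean trend), in 11 comparisons, each adjusted by Benjamini-Hochberg over 40094 probe sets. All groups share 1 spread per probe set in this fit, so arrays outside a comparison also set its SE. The groups differed in spread. The median SD of log2 values was 0.104 in Dagad deshi control and 0.093 in IR20 control, against 0.046 to 0.071 in the drought groups. The script was tested on simulated data. The number of arrays limits the precision.

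Probe sets were named through the platform's table of genes, only where they named 1 gene (22436 probe sets; 95 named several), and updated to RefSeq. A gene's main probe set was the one with the highest mean. Names carried by several RefSeq genes (GID2, KO1, CPS) were not counted. Pathway genes were named if a drought comparison called a change of at least 1 on the log2 scale, and where few were left to count. Members, lists and tests were chosen with earlier results of these data known. The 29 alternative settings were another normalization, pseudocount, filter, block, weighting or index term, and each array left out in turn. No sequences or coordinates are given.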

Additional observations from a re-analysis of the deposited data

Results flagged for a closer look

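Results are given here where the response to drought differed between the cultivars by the test of the difference itself (IR20 change minus Dagad deshi change on the log2 scale, limma, Benjamini-Hochberg over all probe sets). At 3 h, where 48.2% of all probe sets were called, the differences were -0.35 for GID1, 0.89 for SLR1, 1.55 for CPS1, 0.72 for KS1, 0.58 for KO2, 0.77 for GA20OX2, -1.75 for GA20OX3 and -1.89 for EUI1. The adjusted p-values were 0.00887 for GID1, 0.00822 for SLR1, 0.000165 for CPS1, 0.0238 for KS1, 0.0474 for KO2, 0.00576 for GA20OX2, 1.16e-05 for GA20OX3 and 8.85e-06 for EUI1. At 6 h, where 43% were called, they were 0.55 for GA20OX2 (adjusted p = 0.0337), -1.14 for GA20OX3 (adjusted p = 0.000841) and -1.57 for EUI1 (adjusted p = 0.000100). Of the genes counted, the 3 with a difference at both times were GA20OX2, GA20OX3 and EUI1, and neither GID1 nor SLR1 was among them. The probe set of KO1, an early synthesis name left out of the counts, also differed at both times, as given below. The 3 h difference of KS1 was lost without Dagad deshi control replicate 1, IR20 control replicate 1 or IR20 3 h replicate 2 (adjusted p = 0.0511 to 0.0627). That of KO2 was lost under 12 of the 18 single-array removals (adjusted p up to 0.116), namely of all 3 Dagad deshi control arrays, IR20 control replicates 1 and 3, Dagad deshi 3 h replicates 1 and 3, IR20 3 h replicates 2 and 3, Dagad deshi 6 h replicates 1 and 2, and IR20 6 h replicate 3, and the dimmer probe set of KO2 had -0.52 (adjusted p = 0.107). The 6 h difference of GA20OX2 was lost without Dagad deshi control replicate 1, IR20 control replicate 3, Dagad deshi 6 h replicate 1 or 3, or IR20 6 h replicate 1 or 3 (adjusted p = 0.0635 to 0.0854). It was also lost in 4 other alternatives (adjusted p up to 0.202), and the 3 h difference of GA20OX2 was lost in 1 (adjusted p = 0.0576). In the fit that included the index the differences of SLR1, KS1 and KO2 at 3 h and of GA20OX2 at 6 h were 0.59, 0.55, 0.54 and 0.43, and none was called (adjusted p = 0.0721, 0.135, 0.141 and 0.110).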

How the results depend on the processing

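GID1 kept its rise and its call in all 4 drought against control comparisons under all 29 alternatives, and SLR1 kept its fall at 6 h in both cultivars. Of the member values over all comparisons, 859 kept their side of the threshold, 39 newly passed it and 48 no longer did. No member value that was called in either fit turned direction. Of 2303 values of members and pathway genes uncalled in both fits 80 turned sign. Among these, with the index term, the SLR1 change in IR20 at 3 h went from -0.18 to 0.09. The 6 h differences in response went from 0.05 to -0.06 for GID1 and from 0.14 to -0.09 for SLR1. In the fit that included the 3′/5′ index, members called at 3 h in Dagad deshi dropped to 1, against 2 in the main analysis. For 6 h against 3 h in Dagad deshi 0 members were called, against 2 with the 60th percentile filter, array weights, the index term or without the 2 control arrays of highest index (an alternative added after seeing the data), and 1 in the fit on only the groups compared; leaving out single arrays gave 0 to 2. In IR20 the 2 called became 1 with quantile normalization, no filter, the replicate block or only the groups compared, and 1 to 2 without single arrays. Between cultivars, the 1 called in control seedlings became 0 with quantile normalization, the 60th percentile filter, the replicate block, only the groups compared, array weights or without the 2 control arrays (0 to 1 without single arrays). The 1 called at 3 h became 2 with a pseudocount of 64, the 60th percentile filter, only the groups compared, array weights, the index term or without the 2 control arrays (0 to 2 without single arrays), and the 1 at 6 h became 0 in the fit on only the groups compared (0 to 1 without single arrays). For the difference in 3 h response the 2 called became 1 with quantile normalization or the index term and 0 with array weights. The dimmer KO2 probe set changed direction with the index term in Dagad deshi, to -0.0532 at 3 h and -0.0748 at 6 h. The cause was not tested in any of these.

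All probe sets called moved by over 1.5 times as follows; fewer or more probe sets were tested under the filters. In Dagad deshi at 3 h 28441 were called, against 18231 with the 60th percentile filter and 15504 with the index term, and at 6 h 28224, against 18455, 15889 and, in the fit on only the groups compared, 18236. For 6 h against 3 h in Dagad deshi 4604 were called, against 7823 with array weights and 6956 without the 2 control arrays. Between cultivars in control seedlings 21301 were called, against 35888 with no filter, 10978 with the 60th percentile filter, 4140 with only the groups compared and 11343 with array weights. For the difference in 3 h response 19328 were called, against 30808 with no filter, 12564 with the 60th percentile filter and 12656 with the index term, and at 6 h 17260, against 30374, 9290 and, with only the groups compared, 10215.

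Arrays of the same replicate number did not deviate together (median r = 0.03 over 45 pairs, from -0.55 to 0.35, with 12 over 0.1), so the numbers were not taken as pairs. With the replicate block GID1 had adjusted p = 0.0588 for 6 h against 3 h in IR20 and 0.0548 between cultivars in control seedlings, and no other call of a member changed.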

Other observations

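A probe set of a gene that carries the name KO1, a name shared by several RefSeq genes and so left out of the counts, was chosen after its values were seen. In IR20 KO1 was at 936, 1128 and 687 in control arrays, 947, 815 and 1054 at 3 h of drought and 721, 900.2 and 646 at 6 h, so that the groups overlapped. In Dagad deshi KO1 was at 352, 199 and 188 in control arrays, 2684, 2792 and 2862 at 3 h and 2247, 2182 and 2887 at 6 h, all drought arrays above all control arrays. The KO1 changes were 0.05 and -0.26 in IR20 (adjusted p = 0.922 and 0.360) and 3.47 and 3.27 in Dagad deshi (adjusted p = 3.43e-09 and 6.14e-09). The test of the difference gave -3.41 at 3 h and -3.53 at 6 h (IR20 minus Dagad deshi, adjusted p = 1.19e-06 and 2.25e-06). Whether the probe set binds the sequence of both cultivars alike was not tested.

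Another name shared by several RefSeq genes is GID2. The gene of that name with a probe set of its own, LOC4329775, is also named GF14E. LOC4329775 was at 6510.2, 6472 and 6193 in IR20 at 3 h of drought and 4684, 4080 and 4202 at 6 h. It was at 10676, 9857 and 11239 in IR20 control arrays. In Dagad deshi LOC4329775 was at 4669, 4162 and 4694 at 3 h and 3736, 3627 and 3413 at 6 h, against 12766, 10330.1 and 10628 in control arrays. The LOC4329775 changes were -0.73 and -1.29 in IR20 and -1.31 and -1.64 in Dagad deshi, each called. These values are not taken as those of the GID2 of the ubiquitin ligase, since whether LOC4329775 is that gene was not tested.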
